A study of Mus musculus with 11 samples.

Results

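The genes of calmodulin kinases and of small calmodulin-binding regulators were followed in the nucleus accumbens of mice without Rarb, which encodes retinoic acid receptor beta. The set was defined by gene symbol and holds 10 genes: Nrgn, Pcp4, Pcp4l1, Camk2a, Camk2b, Camk2d, Camk2g, Camk4, Camkk1 and Camkk2. Of these, 9 had a probe set carrying their symbol alone, among 19938 genes measured in this way, and the level of Camkk1 was not analysed here. The higher level of Nrgn in Rarb-null mice was known when the set was chosen, so the genotype differences of its genes are given as a description, without p-values, and support nothing further. RNA came from 11 male mice aged 4 to 5 months, 1 array each: 5 Rarb-null mutants and 6 wild-type (WT) littermates. All were bred from heterozygous parents on a mixed C57BL/6J and 129SvEms/j background and had not been tested for behaviour. The labels name no promoter or Cre that limits the mutation to a cell type. The tissue, punched from frozen sections, was the nucleus accumbens enriched in its shell, the ventral part of the striatum. Affymetrix Mouse Gene 1.0 ST arrays were used, and levels are log2 values summarised by robust multi-array analysis (RMA), so a difference of 1 is a doubling.

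Calmodulin is the main calcium sensor of neurons. Calcium entering through channels and glutamate receptors loads it, and loaded calmodulin switches on the calmodulin-dependent kinases. CaMKII, a multimer built from alpha, beta, gamma and delta subunits, acts at synapses. CaMKIV acts in the nucleus on the transcription factor CREB and is itself switched on by the CaM kinase kinases. Neurogranin, encoded by Nrgn, and PEP-19, encoded by Pcp4, are small proteins that bind calmodulin through an IQ motif and set how much of it is free and how fast it exchanges calcium. In rodent brain Nrgn is known as a gene that responds to thyroid hormone and to vitamin A status.

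The mutation was visible in every array. Rarb averaged 9.89 ± 0.11 in Rarb-null arrays (SD, n = 5) and 11.75 ± 0.04 in WT arrays (SD, n = 6), without overlap (difference -1.86, two-sided exact permutation p = 0.00216, the smallest that 462 splits allow). This check mattered because the group sizes in the extraction protocol are swapped relative to the titles. Array medians ran from 7.08 to 7.11 in Rarb-null and from 7.02 to 7.06 in WT arrays, so a small difference in overall scale was left in the deposited values. Striatal projection neuron markers, of which 10 of 12 were measured, had mean levels of 11.46 to 11.62 in Rarb-null and 11.74 to 11.84 in WT arrays. The two-sided exact permutation p was 0.00216, or 0.0173 after Benjamini-Hochberg adjustment for 8 marker lists. Of the 10, 7 were called lower in the limma fit given below, against 12% of all genes. Only Bcl11b had a higher mean in Rarb-null arrays (by 0.021). In punched tissue, fewer cells of a type and less RNA per cell cannot be told apart.

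All 9 measured genes passed the filter on dim genes, and each was read by a single probe set. In a limma fit over 11963 genes with Benjamini-Hochberg adjustment and a threshold of 0.05, 2 of the 9 were called higher (Nrgn and Camk2d) and 1 lower (Pcp4l1) in Rarb-null arrays, where 19.6% of all genes tested were called. The same 3 genes were those whose arrays did not overlap between genotypes, against 11.2% of all genes (3.82% higher and 7.33% lower). By direction, 7.56% of all genes were called higher and 12% lower, and centring each array on its median turned this split from 905 higher and 1436 lower genes into 1677 higher and 939 lower. The median difference was 0.003 over the 9 genes and -0.017 over all genes tested. The 3 called genes kept their directions with arrays centred and with quantile normalisation repeated. Both steps moved their differences little (Nrgn from 0.443 to 0.483 and 0.465), so the directions could hardly change.

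**Figure D1:**
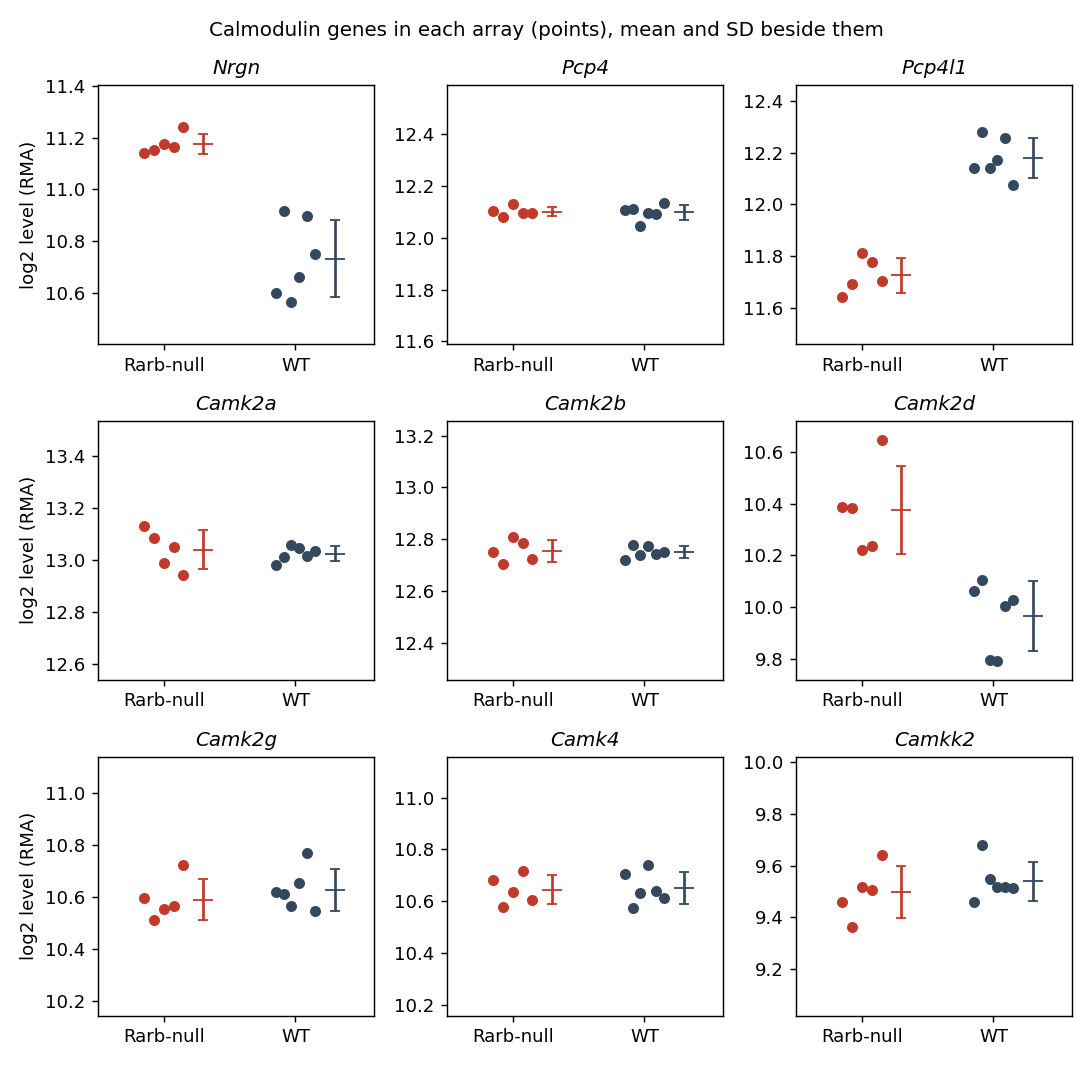
Log2 level of the 9 measured genes in each array, Rarb-null (red, 5 arrays) left of WT (dark, 6 arrays), with the mean and SD beside the points; every panel spans 1 log2 unit. Nrgn and Camk2d lie higher and Pcp4l1 lower in all Rarb-null arrays, while the arrays of the other 6 genes overlap.

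Nrgn was higher in every Rarb-null array. It read 11.14, 11.15, 11.18, 11.17 and 11.24 in Rarb-null replicates 1 to 5, against a lowest value of 10.57, a median of 10.71 and a highest value of 10.92 in the 6 WT arrays. The groups did not overlap. The difference was 0.44 (SE 0.062), a 1.36-fold higher level, and 0.911% of all genes tested had a difference at least as large in this direction. The Rarb-null arrays also lay closer together, with an SD of 0.039, against 0.149 in WT arrays.

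The gene related most closely to PEP-19 went the other way. Pcp4l1, which encodes a PEP-19-like protein with an IQ motif of its own, read 11.64, 11.69, 11.81, 11.78 and 11.70 in Rarb-null replicates 1 to 5, against a lowest value of 12.08, a median of 12.16 and a highest value of 12.28 in WT arrays. Every Rarb-null array was below every WT array. The difference was -0.45 (SE 0.044), a 1.37-fold lower level, and 1.08% of genes tested had a fall at least as large. Pcp4 itself read 12.10, 12.08, 12.13, 12.10 and 12.10 in Rarb-null arrays, against 12.05 to 12.13 with a median of 12.10 in WT arrays. The ranges lay almost on top of each other. The difference of Pcp4 was 0.003 (SE 0.027), and its 95% interval ran from -0.055 to 0.061, well apart from that of Pcp4l1 (-0.548 to -0.358).

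Of the CaMKII subunits, the delta gene was the one called. Camk2d, which is known mainly from heart and other peripheral tissue but is also present in brain, read 10.39, 10.38, 10.22, 10.24 and 10.65 in Rarb-null replicates 1 to 5, against a lowest value of 9.79, a median of 10.02 and a highest value of 10.11 in WT arrays. The groups did not overlap, and the distance between the highest WT and the lowest Rarb-null array was small beside the spread within either genotype. The difference was 0.41 (SE 0.080), a 1.33-fold higher level, and 1.09% of genes tested had a rise at least as large.

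Camk2a, the alpha subunit gene that dominates in the forebrain, read 13.13, 13.09, 12.99, 13.05 and 12.94 in Rarb-null replicates 1 to 5, against 12.98 to 13.06 with a median of 13.02 in WT arrays. The Rarb-null arrays lay on both sides of the WT arrays, with an SD of 0.075 in Rarb-null and of 0.029 in WT arrays. Its difference was 0.016 (SE 0.036), with a 95% interval from -0.062 to 0.094. Camk2b, whose subunit ties the enzyme to actin, read 12.71 to 12.81 in Rarb-null and 12.72 to 12.78 in WT arrays, with a difference of 0.004 (SE 0.029; 95% interval -0.059 to 0.067). Both intervals exclude a difference as large as that of Camk2d.

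Camk2g, the gamma subunit gene, read 10.51 to 10.72 in Rarb-null and 10.55 to 10.77 in WT arrays, with a difference of -0.037 (SE 0.047; 95% interval -0.138 to 0.063). It lies on chromosome 14, as Rarb does, with 34 protein-coding genes between them in the RefSeq gene table of GRCm38.p6. Of 20 tested genes in that stretch 6 were called (30.0%, against 19.6% of all genes), 1 higher and 5 lower in Rarb-null arrays. On this mixed background, strain alleles linked to Rarb cannot be told apart from the mutation in that stretch.

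The nuclear kinase and its activator gave no call. Camk4 read 10.58 to 10.72 in Rarb-null and 10.58 to 10.74 in WT arrays, with a difference of -0.007 (SE 0.038; 95% interval -0.089 to 0.075). Camkk2, which encodes a kinase that activates both CaMKIV and the energy sensor AMPK, read 9.36 to 9.64 in Rarb-null and 9.46 to 9.68 in WT arrays, with a difference of -0.042 (SE 0.050; 95% interval -0.149 to 0.065). For both genes the arrays of the genotypes overlapped over most of their range.

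The region around the start of the 3 called genes is shown because the missing protein is a DNA-binding receptor, whose dimers recognise pairs of 6-base motifs in direct repeat. The motif was searched as AGGTCA and its variant AGTTCA, and likewise with the first letter changed to G, as GGGTCA and also as GGTTCA. The windows run from 250 bases before to 50 bases after the start (RefSeq, GRCm38.p6, 5′ to 3′ on the strand of the gene), and capitals mark any of these 4 motifs on either strand. That of Nrgn is chr9:37552696-37552995 (minus strand), that of Pcp4l1 chr1:171196219-171196518 (minus strand) and that of Camk2d chr3:126596701-126597000 (plus strand).
Nrgn: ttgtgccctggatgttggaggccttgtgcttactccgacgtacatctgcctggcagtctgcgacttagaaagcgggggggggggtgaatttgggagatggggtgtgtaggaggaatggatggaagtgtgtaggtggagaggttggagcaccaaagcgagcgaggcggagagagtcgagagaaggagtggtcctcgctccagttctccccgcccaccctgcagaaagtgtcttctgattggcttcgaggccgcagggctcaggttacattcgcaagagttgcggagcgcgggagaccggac
Pcp4l1: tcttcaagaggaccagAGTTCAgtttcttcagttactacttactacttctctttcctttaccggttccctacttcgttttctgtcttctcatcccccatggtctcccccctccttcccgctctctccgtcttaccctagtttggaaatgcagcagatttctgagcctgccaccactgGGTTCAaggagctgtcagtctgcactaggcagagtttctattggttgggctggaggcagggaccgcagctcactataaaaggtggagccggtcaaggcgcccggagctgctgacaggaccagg
Camk2d: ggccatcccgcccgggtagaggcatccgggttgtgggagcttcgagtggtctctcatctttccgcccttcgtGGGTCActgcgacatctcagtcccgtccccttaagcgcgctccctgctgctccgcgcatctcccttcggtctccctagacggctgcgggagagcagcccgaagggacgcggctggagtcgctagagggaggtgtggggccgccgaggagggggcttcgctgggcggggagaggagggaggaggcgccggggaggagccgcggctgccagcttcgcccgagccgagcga
Pcp4l1 held 2 single motifs, Camk2d 1 and Nrgn 0, where 43.7% of 32851 promoter windows of this length held at least 1. Of the 7 members whose windows were searched (Nrgn, Pcp4, Pcp4l1, Camk2b, Camk2d, Camkk1 and Camkk2) 3 held at least 1 motif, the third being Pcp4, which was not called. None of the 7 held 2 motifs in direct repeat with a spacing of 1, 2 or 5 bases, a pattern found in 0.588% of all windows. The window of Rarb itself, on chromosome 14, did hold such a repeat, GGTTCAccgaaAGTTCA, with a spacing of 5, which is the textbook element of this promoter and a check of the search. Camk2a, Camk2g and Camk4 were not searched. A match is a description of the letters, not of binding, and sites outside these windows were not searched.

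Markers of cortical neurons stood higher in the same Rarb-null arrays, and the differences of Nrgn and Camk2d were smaller with their level in the fit. Of 10 listed cortical markers 9 were measured and 8 passed the filter (Neurod6 was below it). Their mean level was 8.87 to 9.35 in Rarb-null and 8.30 to 8.89 in WT arrays (two-sided exact permutation p = 0.0152, or 0.0432 after Benjamini-Hochberg adjustment for the 8 marker lists). All 8 had a higher mean in Rarb-null arrays, by 0.012 (Rorb) to 0.946 (Tbr1). The limma fit called 4 of the 8 higher, against 7.56% of all genes. Among these markers, Slc17a7, the vesicular transporter gene of cortical glutamate neurons, averaged 11.07 in Rarb-null and 10.17 in WT arrays. The 10 cortical markers and the calmodulin genes share no gene. With the cortical level of each array as a covariate in limma, the difference of Nrgn was 0.24 (SE 0.059) and it was still called. That of Camk2d was 0.16 (SE 0.079; 95% interval -0.015 to 0.33) and it was no longer called. That of Pcp4l1 was -0.51 (SE 0.065), against -0.45 without the covariate (SE 0.044). Over all genes tested, 965 were called with this covariate, against 2341 without it, so calls were lost over all genes and not only here.

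**Figure D2:**
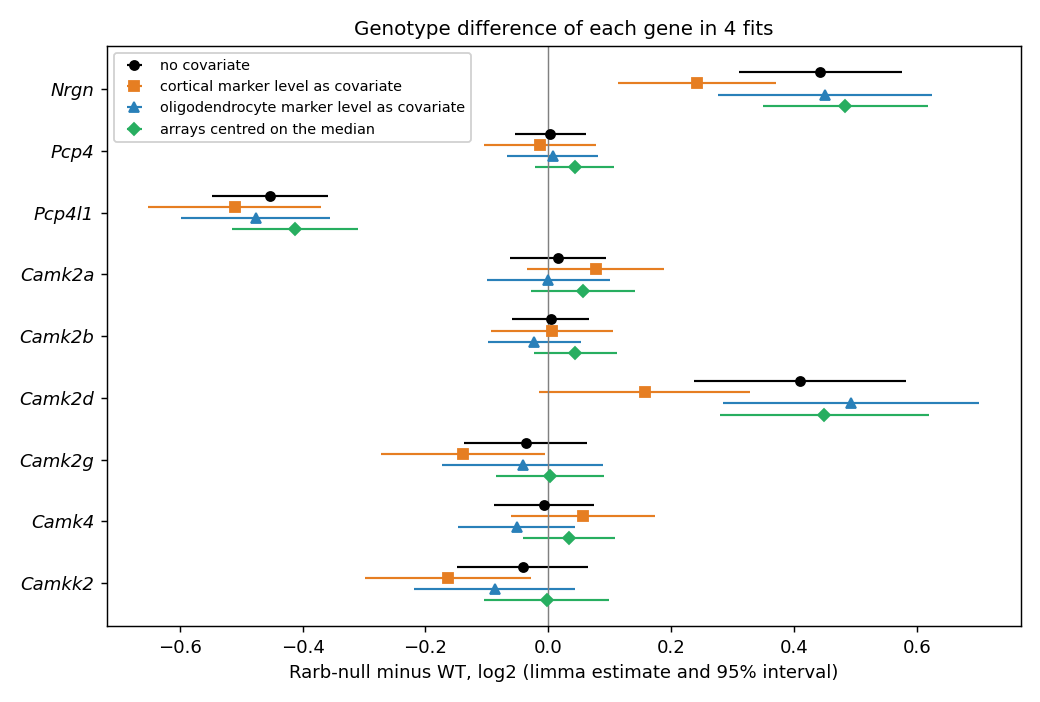
Rarb-null minus WT difference of each gene on the log2 scale with its 95% interval, from 4 limma fits. These had no covariate, the cortical or the oligodendrocyte marker level as a covariate, or arrays centred on the median of their tested genes. With the cortical covariate Nrgn goes from 0.44 to 0.24, Camk2d from 0.41 to 0.16 and Pcp4l1 from -0.45 to -0.51.

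Variation between mice of one genotype, which played no part in choosing the genes, was compared with the cortical and with the oligodendrocyte marker level, 18 relations in all. Values were taken as deviations from the mean of their genotype, and p-values come from the exact permutation of arrays within genotypes. Nrgn followed the cortical level over the 11 arrays (Pearson r = 0.86, exact permutation p = 0.00208, Benjamini-Hochberg adjusted 0.0374; Spearman rho = 0.85, p = 0.00611, adjusted 0.0623). WT replicate 2 and Rarb-null replicate 5 lay farthest out in their deviations of cortical level. Without them, r was again 0.86 over 9 arrays, but the exact permutation p of 0.0375 became 0.675 after adjustment. The 6 WT arrays alone gave r = 0.94, while in Rarb-null arrays other than replicate 5 Nrgn lay between 11.14 and 11.18. Camk2d gave r = 0.80 (exact permutation p = 0.00572, adjusted 0.0515; rho = 0.84, p = 0.00692, adjusted 0.0623) and 0.60 without those arrays (exact permutation p = 0.194), and did not pass. Pcp4l1 gave r = 0.38 (exact permutation p = 0.281, adjusted 0.483; rho = 0.25, p = 0.500) and Camk2a r = -0.54 (exact permutation p = 0.0592, adjusted 0.213; rho = -0.59, p = 0.0509). With the oligodendrocyte level, r ran from -0.60 to 0.41 and no relation passed (smallest adjusted exact permutation p 0.242).

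The cortical levels of the genotypes overlapped at 1 WT array. WT replicate 2, at 8.89, stood just above Rarb-null replicates 2 and 4, at 8.87 and 8.88. There Nrgn read 11.15 and 11.17 in the Rarb-null arrays, against 10.92 in the WT array. Camk2d read 10.38 and 10.24 in those Rarb-null arrays, against 10.11 in the WT array. Pcp4l1 read 11.69 and 11.78, against 12.28. The arrays of these 3 genes do not overlap between genotypes, so any such choice of arrays has this order, and the values are a description. Septal markers (2 tested genes) ran from 7.79 to 8.11 in Rarb-null and from 7.68 to 7.87 in WT arrays. Astrocyte markers (6 genes) ran from 10.14 to 10.23 in Rarb-null and from 10.18 to 10.28 in WT arrays. Oligodendrocyte markers (7 genes) ran from 9.54 to 9.77 in Rarb-null and from 9.66 to 9.83 in WT arrays. Adjusted for the 8 marker lists, the two-sided exact permutation p was 0.0432 for septal, 0.0432 for astrocyte and 0.0866 for oligodendrocyte markers. For interneuron, microglia and endothelium markers this adjusted p was 0.693, 0.887 and 0.693. The part of septal tissue or astrocytes in the differences of the calmodulin genes was not tested.

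**Figure D3:**
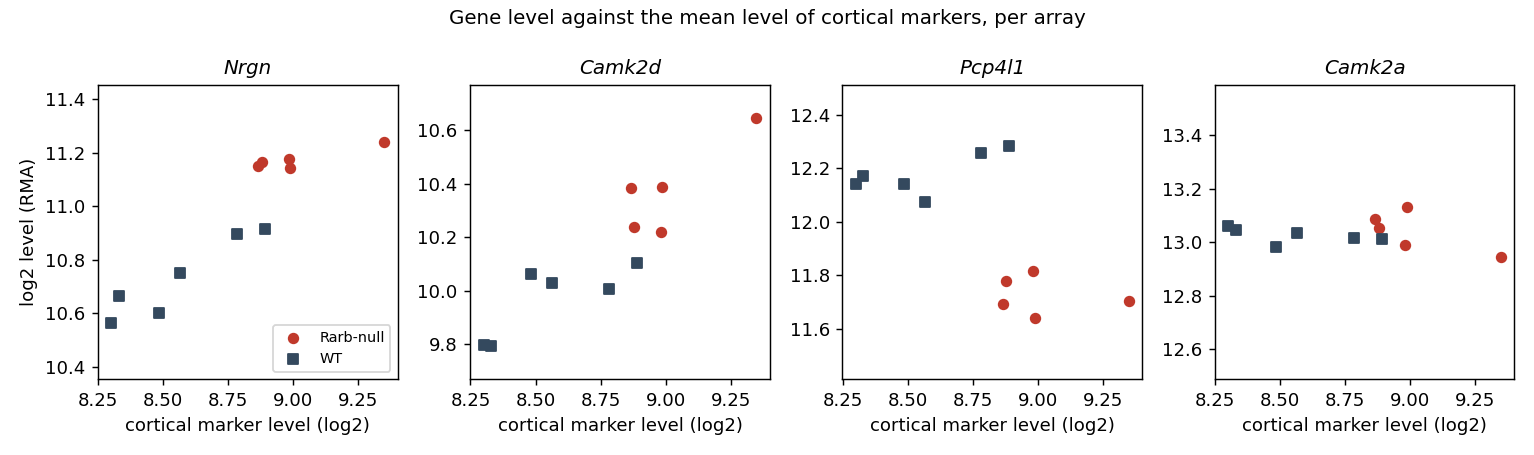
Log2 level of Nrgn, Camk2d, Pcp4l1 and Camk2a (vertical axes) against the mean log2 level of 8 cortical markers (horizontal axes), 1 point per array, Rarb-null in red circles and WT in dark squares. Nrgn and the cortical level have r = 0.86 over deviations pooled from both genotypes and 0.94 in the 6 WT arrays. This relation did not pass adjustment without 2 arrays (adjusted exact permutation p = 0.675). The Pcp4l1 levels of the genotypes do not overlap, and those of Camk2a do. Cortical levels of the genotypes overlap only at WT replicate 2.

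The other genes of calmodulin signalling were taken from 6 lists with 80 genes, of which 74 were tested, with a median difference of -0.013. In the limma fit 10 were called higher and 13 lower (31.1% called, against 19.6% of all genes tested). Rises and falls counted below are such calls. The lists were chosen with earlier results of these data known, so their shares called are a description and no list was tested as a set. Centring of arrays gave 12 rises and 8 falls. The calmodulin genes Calm2 and Calm3 were not called. Calm2 differed by -0.08 (SE 0.031, limma Benjamini-Hochberg adjusted p = 0.0984) and Calm3 by 0.02 (SE 0.031). Calm2 was called lower with the trended and robust variance (adjusted p = 0.0378).

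Of 9 further genes listed with the calmodulin-dependent kinases 3 rose and 0 fell (33.3% called). Camk1g, the gene of a membrane-anchored CaMKI, averaged 10.64 ± 0.13 in Rarb-null and 9.96 ± 0.19 in WT arrays (0.68, SE 0.087, limma adjusted p = 0.000147). This was larger than the difference of any of the 9 genes above. It was 0.91 with the cortical and 0.53 with the oligodendrocyte covariate, called in both. Camk1d rose by 0.19 (SE 0.037, limma adjusted p = 0.0035). Pnck, which encodes a kinase of the CaMKI family, rose by 0.24 (SE 0.050, adjusted p = 0.00522), with overlapping arrays, and was not called with the oligodendrocyte covariate (0.18, adjusted p = 0.0647).

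Among 8 tested inhibitors, partners and phosphatases of CaMKII, 2 rose and 3 fell (62.5% called). Actn2, which encodes an actinin that holds CaMKII at the synapse, fell by 0.31 (SE 0.039, limma adjusted p = 0.000108), and Rem2, the gene of a small GTPase that inhibits CaMKII, fell by 0.34 (SE 0.049, adjusted p = 0.000385). The phosphatase gene Ppm1f fell by 0.16 (SE 0.039, limma adjusted p = 0.0141), a call lost with the cortical covariate (-0.13, SE 0.06, adjusted p = 0.206). Camk2n1 and Actn4, named after their values were seen, were the rises. Camk2n1, the gene of the CaMKII inhibitor protein, averaged 11.89 ± 0.06 in Rarb-null and 11.74 ± 0.06 in WT arrays (0.15, SE 0.038, limma adjusted p = 0.0169). Neither rise was called with the cortical covariate (Camk2n1 0.18, limma adjusted p = 0.0868; Actn4 0.06, adjusted p = 0.461) or with the oligodendrocyte covariate (0.14 and 0.08, adjusted p = 0.0814 and 0.2). That of Actn4 was also lost with the replicate block and with no filter on dim genes (adjusted p = 0.052 and 0.0585). A single rise was left when 1 array was taken out, except for Rarb-null replicate 2 or WT replicate 2 or 5, where 2 remained.

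Of 9 genes of calcineurin, the calmodulin-dependent phosphatase, 0 rose and 1 fell (11.1%, below the 19.6% of all genes called). The modulator gene Rcan2 fell by 0.18 (SE 0.037, limma adjusted p = 0.00495), with 10.63 ± 0.06 in Rarb-null and 10.81 ± 0.05 in WT arrays. Rcan1 differed by 0.08 (SE 0.030, adjusted p = 0.079) and the catalytic subunit gene Ppp3ca by -0.06 (SE 0.033, adjusted p = 0.227), neither past the threshold. Rcan1 passed with arrays centred (0.12, adjusted p = 0.0144).

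Of 27 genes listed with other calmodulin-binding proteins 2 rose and 9 fell (40.7% called). The phosphodiesterase gene Pde1a rose by 0.65 (SE 0.034, limma adjusted p = 3.85e-08), and Strn, the gene of the scaffold striatin, fell by 0.74 (SE 0.045, adjusted p = 1.51e-07). Camta1, a calmodulin-binding transcription activator gene, fell by 0.21 (SE 0.034, adjusted p = 0.000877). It had 4 probe sets, whose differences ran from -0.298 to -0.010. The call of Camta1 was lost with the cortical covariate (-0.17, SE 0.051, limma adjusted p = 0.0581). The falls numbered 4 with arrays centred, 5 with quantile normalisation repeated, 3 with the cortical and 5 with the oligodendrocyte covariate. Over all genes tested, the genes called lower in these fits numbered 939, 1142, 669 and 951, against 1436 in the main fit.

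Targets downstream of CaM kinase kinase and CaMKIV gave 3 rises and 0 falls among 19 (15.8%, below the 19.6% of all genes called). Mef2c, a neuronal transcription factor gene, rose by 0.35 (SE 0.062, limma adjusted p = 0.00174), Hdac5, the gene of a histone deacetylase that CaM kinases drive out of the nucleus, by 0.24 (SE 0.051, adjusted p = 0.00496), and the CREB coactivator gene Crtc1 by 0.14 (SE 0.042, adjusted p = 0.0387). Of all genes tested, the fit with the cortical covariate called 965, against 2341 without it. None of the calls of Mef2c, Hdac5 and Crtc1 was kept in it (0.19, 0.17 and 0.10, SE 0.074, 0.073 and 0.065, limma adjusted p = 0.142, 0.18 and 0.367). That of Crtc1 was also lost with the oligodendrocyte covariate (0.09, adjusted p = 0.257), with no filter on dim genes (adjusted p = 0.0558), and without any single array other than WT replicate 3 or Rarb-null replicate 2 (0.11 to 0.17 over all leave-outs, adjusted p up to 0.0924). The falls in this list numbered 3 with the replicate block and 1 with the oligodendrocyte covariate, and leaving out any of Rarb-null replicates 1, 4 and 5 or of WT replicates 2 and 6 also gave 1 fall.

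**Figure D4:**
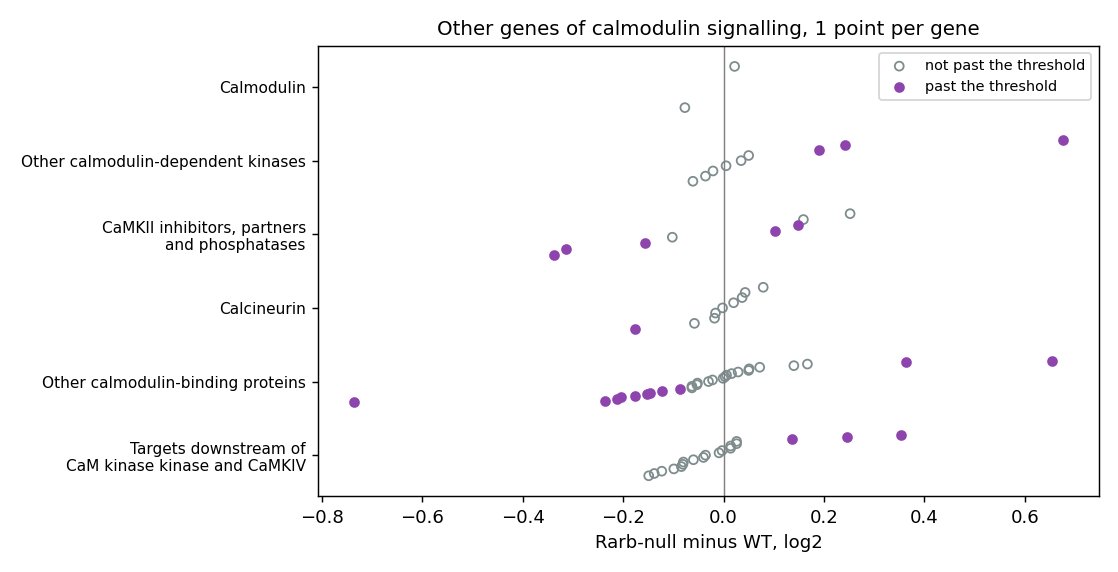
Rarb-null minus WT difference on the log2 scale of 74 further genes of calmodulin signalling, 1 point per gene in 6 lists (rows); filled points passed a limma adjusted p of 0.05 and open points did not. The widest differences are Strn at -0.74 and Camk1g at 0.68.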

How the data were processed

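Total RNA (100 ng per mouse) from bilateral 0.5 mm punches of 3 cryosections of 300 µm was hybridised to 1 array per mouse, per the labels' protocols. The deposited values are log2 expression after RMA (background subtraction, quantile normalisation, probe set summary), per the labels' description; base 2 was inferred from the range, and the RMA version was not given in the sources used. RMA compresses folds of dim genes, and the number of arrays limits precision. Groups came from the titles.

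Of 35556 probe sets, 21789 had 1 symbol in the platform annotation. For 21698 of these the gene identifier was found in RefSeq, and the RefSeq symbol was used. A gene was read by its probe set with the highest mean, and the fit took the 11963 of 19938 genes with a mean over the 40th percentile (log2 6.99). The comparison of genotypes used limma 3.58.1 in R 4.3.3 (lmFit, eBayes, no covariates), tested on simulated data. Relations within a genotype used all 86400 permutations. Figures used matplotlib 3.10.9.

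The genes, lists and tests were chosen with earlier results of these data known. Named genes were all members, Rarb, up to 3 genes per list with the smallest p and the 5 genes most like Nrgn. Alternatives covered the filter, scaling, variance model, array weights, probe sets, a replicate block, marker covariates and each array left out. A set without the 3 arrays farthest from their genotype means in cortical level, and the pairs of members, were added after seeing the data. Protein sequences were not used here.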

Additional observations from a re-analysis of the deposited data

How the results depend on the processing

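Because the arrays of Nrgn, Pcp4l1 and Camk2d do not overlap between genotypes, leaving out arrays could not change their directions. The calls of Nrgn and Pcp4l1 were kept in all 22 alternatives, those without any single array included, and the call of Camk2d in 21. The exception was the cortical covariate, with 1 member higher in place of 2. The number of all genes called was 965 with that covariate (296 higher, 669 lower), 1369 with the oligodendrocyte covariate (418 higher, 951 lower) and 510 higher with the stricter filter. Centring gave 1677 higher and 939 lower. Of the further calmodulin signalling genes, 8 fell with arrays centred, 5 rose and 7 fell with the cortical covariate and 6 rose with the oligodendrocyte covariate. The causes of these shifts were not tested. With 1 array left out, the counts over all genes ran from 1547 to 2576 (584 to 1010 higher, 963 to 1566 lower), the lowest without Rarb-null replicate 3. The 3 arrays farthest from their genotype means in cortical level were WT replicates 2 and 3 and Rarb-null replicate 5. Without them Nrgn differed by 0.43, Camk2d by 0.33 and Pcp4l1 by -0.43, all called. In the arrays left, cortical levels ran from 8.87 to 8.99 in Rarb-null and from 8.33 to 8.78 in WT arrays. These ranges do not overlap, so genotype and cortical level cannot be told apart there. Relations to marker levels past the adjusted threshold numbered 0 without the 2 farthest arrays, against 1 of 18 with all. Whether the replicate numbers pair the arrays was not tested. Same-numbered arrays correlated at 0.056 to 0.425 in their deviations, and 2 of 5 Rarb-null arrays were matched best by their own number. A replicate block called 2872 genes, against 2341 without it, and changed no call of a member. The SE of Camk2d was 0.051 with the block, against 0.080 without it.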

Other observations

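The 5 genes whose deviations from the genotype means over the 11 arrays were most like those of Nrgn were Kcna2, Hs3st2, Myl4, Map4 and Cdh6, with Pearson r from 0.902 to 0.916. They were picked as the highest of all genes tested, so r carries no test. Hs3st2 differed by 0.42 (SE 0.163) and Myl4 by 0.26 (SE 0.162), neither past the limma threshold (adjusted p = 0.0844 and 0.275). Kcna2 differed by -0.04 and Cdh6 by -0.12, neither past it (adjusted p = 0.564 and 0.353). With the cortical covariate both were called lower (Kcna2 -0.21, limma adjusted p = 0.0191; Cdh6 -0.45, adjusted p = 0.0019), and the differences of Hs3st2 and Myl4 turned to -0.20 and -0.34, neither called (adjusted p = 0.203 and 0.0975). Hs3st2 was called higher in the limma fit without WT replicate 2 (0.55, adjusted p = 0.00997). It was also called higher without the 3 arrays farthest from their genotype means in cortical level (0.40, adjusted p = 0.0311). Map4 fell by 0.15 (SE 0.037, adjusted p = 0.0114), a call lost when its 2 probe sets, at -0.154 and 0.028, were averaged (-0.06, adjusted p = 0.217).

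Within a genotype no pair of the calmodulin genes passed a test of joint variation. Of 36 pairs, 21 had r above 0 over the deviations of 11 arrays, with r from -0.54 to 0.57, and 0 passed adjustment (smallest adjusted exact permutation p 0.536), with 1 pair at an unadjusted p under 0.05. That pair was Nrgn and Camkk2 (r = 0.51, exact permutation p = 0.047; rho = 0.46, p = 0.122), with r = 0.07 after the 2 arrays farthest out in Camkk2 were left out. Camk2a and Camk2b, subunit genes of one enzyme, gave r = -0.05 (exact permutation p = 0.913; rho = -0.13, p = 0.745).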
